A study of Mus musculus with 6 samples.

Results

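The DNA methylation and Polycomb enzymes described here are 10 genes listed by name: Dnmt1, Dnmt3a, Dnmt3b, Uhrf1, Hells, Tet1, Tet2, Tet3, Ezh2 and Ezh1. All 10 were among the 23366 genes of the deposited count table, and all 10 passed the filter on low counts that left 10897 genes for testing. They were measured by RNA sequencing of CD4+ effector T cells from Rag-deficient mice, recovered from mesenteric lymph nodes 6 weeks after transfer. Hosts without Rag cannot form lymphocytes bearing antigen receptors, and the labels give FVB/N as the strain background. The sort was by rhodamine 123 (Rh123), a dye exported by the Mdr1 transporter. Mdr1+ stands for the fraction with a low dye signal and Mdr1- for that with a high one, each with 3 libraries. These are fractions of a sort by dye signal and carry no engineered allele in the labels, and both had gone through transfer into a Rag-deficient host. Whether the replicates are different animals or pools is not stated, and p-values therefore measure only the spread between these libraries, which may be technical.

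DNA methylation in mammals is placed on cytosines next to guanines. Dnmt3a and Dnmt3b set new marks, while Dnmt1, guided by Uhrf1 to half-methylated DNA behind the replication fork and helped by the chromatin remodeller Hells, copies existing marks to the new strand when cells divide. The Tet enzymes oxidise the methyl group and start its removal. Ezh2 and its paralog Ezh1 are the alternative catalytic subunits of Polycomb repressive complex PRC2, which methylates lysine 27 of histone H3. In T cells, Ezh2 and Dnmt1 are known from activated, dividing cells, and Ezh1 from many resting cell types.

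Each library held 2220691 to 20771456 counts in genes, and 3 counts corresponded to 0.14 to 1.41 CPM (counts per 1e+06 reads in genes, scaled by TMM, a trimmed-mean factor per library). The Mdr1+ library of replicate 3 was the shallowest and stood apart on the first principal component, at 100.3 against -37.1 to -3.6 for the other 5. Libraries of the same replicate number deviated together from their group means (correlations across genes of 0.41, 0.57 and 0.21), so a fit blocked on that number is reported as well. Of the 2 genes taken for Mdr1, Abcb1a averaged 162 CPM in the Mdr1+ fraction against 62.8 CPM in the Mdr1- fraction. Its paralog Abcb1b averaged 93.9 against 55.7 CPM, and the fractions overlapped (log2 fold change 0.75 ± 0.48, edgeR adjusted p = 0.62, and 0.0046 with the block). The 7 T cell markers found in the table summed to 3560 to 4510 CPM in Mdr1+ and 3650 to 4150 CPM in Mdr1- libraries, and Cd8a was at or under 0.784 CPM on average in both groups. Summed markers of other cells in Mdr1+ and Mdr1- libraries were 24.1 to 48.1 and 61.5 to 83.5 CPM for 6 dendritic cell genes. Most of that sum was Cd74, at 19.4 to 34 and 45.3 to 59.4 CPM. Cd74, Itgax and H2-Ab1 were lower in Mdr1+ libraries without overlap, and Zbtb46, Flt3 and H2-Aa overlapped. Itgax was at 2.51 CPM or less and Flt3 at 0.335 CPM or less in every library. Summed levels were 0.421 to 6.13 and 1.56 to 84.1 CPM for 7 myeloid genes, the highest in the Mdr1- library of replicate 3 (Il1b 36.7, Cd14 23.6 and Lyz2 14.6 CPM). They were 11 to 22.8 and 6.36 to 10.8 CPM for 5 B cell genes, with Ms4a1 at 0.112 CPM or less in every library. Of these, Cd22 was higher in all 3 Mdr1+ libraries (13 against 5.85 CPM on average; 1.11 on the log2 scale and edgeR adjusted p = 0.037 with the block, 0.33 without it), and Cd79a reached 11.3 CPM in the Mdr1+ library of replicate 3. They were 117 to 191 and 125 to 136 CPM for 6 stromal and endothelial genes, mostly Pecam1 (115 to 190 CPM), with Pdpn at 0 in every library, and 2.82 to 10.8 and 3.24 to 7.98 CPM for 4 epithelial genes, with Krt8 at 0 in every library. Acta2, at 4.35, 6.4 and 4.08 CPM in Mdr1- and at 0, 0.28 and 0 CPM in Mdr1+ libraries, fell (edgeR adjusted p = 0.018), and Cdh5, at 2.02 and 0.377 CPM on average, did not overlap between fractions (adjusted p = 0.12).

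The genes that copy methylation at replication, Dnmt1 and Uhrf1, fell in Mdr1+ cells, while the de novo methyltransferase Dnmt3a and the Tet genes had log2 fold changes between -0.21 and 0.04 that did not pass. In edgeR's quasi-likelihood test over 10897 genes, with Benjamini-Hochberg adjustment and a threshold of 0.05, 2 of the 10 genes fell, against 1.95% of all tested genes. None rose, against 0.275%. At an unadjusted edgeR p under 0.05, 1 of the 10 was higher (Dnmt3b) and 4 were lower, against 505 and 787 of the 10897 tested genes. DESeq2 called 0 of the 10 higher and 3 lower, against 103 and 375 of those tested genes. With the replicate number as a block 4 of 10 fell, Hells and Ezh2 joining Dnmt1 and Uhrf1, against 6.57% of all genes, and 0 rose, against 5.81%. The same 4 genes had all 3 Mdr1+ libraries below all 3 Mdr1- libraries, against 11.0% of tested genes. Dnmt3b had all 3 above, against 8.71%. Within replicate numbers those 4 genes were lower in 3 of 3 pairs, against 24.6% of tested genes, and Dnmt3b and Ezh1 were higher in 3 of 3, against 28.2%. The median log2 fold change of Mdr1+ over Mdr1- was -0.14 for the 10 genes and 0.04 for all tested genes.

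**Figure D1:**
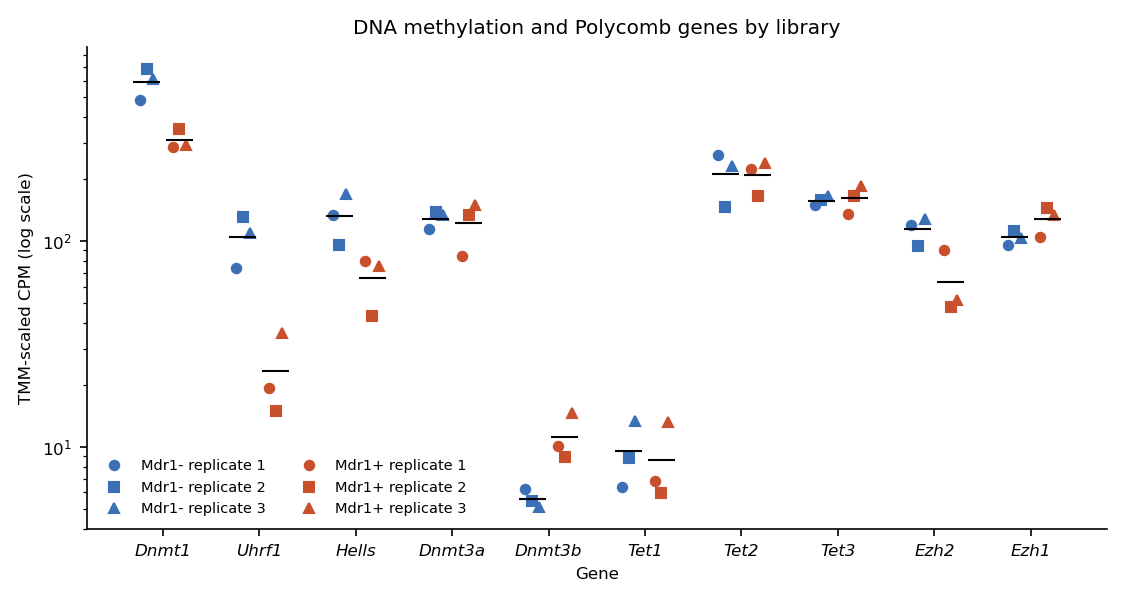
TMM-scaled CPM (y axis, log scale) of the 10 genes (x axis) in each library. Colours are the sorted fractions, symbols the replicate numbers and black bars the means of 3 libraries. Dnmt1, Uhrf1, Hells and Ezh2 have no overlap between fractions and are lower in Mdr1+, Dnmt3b has no overlap and is higher, and the other 5 overlap.

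Uhrf1, the reader of half-methylated DNA that recruits Dnmt1, had the lowest log2 fold change of the 10. It was at 73.7, 131 and 109 CPM in the Mdr1- libraries of replicates 1, 2 and 3, and at 19.3, 15 and 35.8 CPM in the Mdr1+ libraries. Every Mdr1+ library was below every Mdr1- library, with log2 ratios within numbers of -1.93, -3.13 and -1.60. The group means were 105 ± 28.9 and 23.4 ± 11 CPM (SD, n = 3 each), a 4.49-fold lower mean in Mdr1+ cells. The log2 fold change was -2.24 ± 0.35 (SE; edgeR adjusted p = 0.013), and 1.4% of tested genes had a lower one. The call was lost without the Mdr1- library of replicate 3 (log2 fold change -2.20, adjusted p = 0.065) and without replicate number 2 or 3 (-1.78 and -2.63, adjusted p = 0.11 and 0.17). With the block the value was -2.31 ± 0.27 (adjusted p = 0.0011).

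Dnmt1, the maintenance methyltransferase, was the most abundant of the 10 by counts. The Mdr1- libraries held 484, 684 and 608 CPM and the Mdr1+ libraries 286, 349 and 293 CPM in the order of the replicate numbers. The highest Mdr1+ library thus lay below the lowest Mdr1- library, and the ratios within numbers were close to each other at 0.590, 0.510 and 0.482. Group means were 592 ± 101 and 309 ± 34.6 CPM (SD, n = 3 each), with a log2 fold change of -0.94 ± 0.19 (edgeR adjusted p = 0.039). Leaving out a single library ended this call for 5 of the 6 libraries. Without the Mdr1- library of replicate 2 or 3 the adjusted p was 0.11 or 0.19. It was 0.11, 0.073 or 0.15 without the Mdr1+ library of replicate 1, 2 or 3. Leaving out a replicate number ended it each time (adjusted p = 0.096 to 0.45). The log2 fold change of Dnmt1 stayed between -1.11 and -0.82 in all 19 alternatives. With the block it was -0.93 ± 0.09 (adjusted p = 0.00039), and the gene also passed with the block and without any 1 replicate number.

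Hells, a chromatin remodeller needed for methylation of repeats, was at 133, 95.7 and 168 CPM in the Mdr1- libraries and at 79.6, 43.0 and 75.5 CPM in the Mdr1+ libraries. Replicate 2 was lowest in both fractions, and the fractions did not overlap. Its log2 fold change of -1.01 ± 0.28 did not pass without the block (edgeR adjusted p = 0.15) and passed with it (-1.01 ± 0.12, adjusted p = 0.0012). DESeq2 also called it (adjusted p = 0.029). With the block it passed without any 1 replicate number too (adjusted p = 2.4e-06 to 0.0049).

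Neither de novo methyltransferase passed in the fit by group or in the fit with the block. Dnmt3a was at 114, 138 and 133 CPM in Mdr1- and at 84.7, 133 and 150 CPM in Mdr1+ libraries. The Mdr1+ values span the Mdr1- values, with the lowest in replicate 1 and the highest in replicate 3. The log2 fold change of Dnmt3a was -0.07, with a 95% confidence interval of -0.58 to 0.43 (edgeR adjusted p = 0.94). Dnmt3b was a low-count gene, at 6.25, 5.45 and 5.09 CPM in Mdr1- (56, 63 and 30 counts) and at 10.1, 8.93 and 14.6 CPM in Mdr1+ libraries (61, 191 and 31 counts). Every Mdr1+ library was above every Mdr1- library. The difference of 0.97 ± 0.34 did not pass without the block or with it (adjusted p = 0.28 and 0.095). With the block and without replicate 3, whose Mdr1+ library stood apart, it was 0.67 ± 0.19 and passed (adjusted p = 0.043).

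None of the 3 Tet enzymes passed in any of the 19 alternatives or in the fit by group. Tet2 was at 260, 146 and 231 CPM in Mdr1- and at 224, 166 and 240 CPM in Mdr1+ libraries. The fractions overlapped, and replicate 2 was lowest in both. The log2 fold change of Tet2 was -0.02, with a 95% interval of -0.57 to 0.54. Tet3 was at 149, 158 and 165 CPM in Mdr1- and at 135, 165 and 185 CPM in Mdr1+ libraries, a log2 fold change of 0.04 with an interval of -0.35 to 0.42. Tet1, with 28 to 127 counts per library, was at 6.36, 8.82 and 13.4 CPM in Mdr1- and at 6.81, 5.94 and 13.2 CPM in Mdr1+ libraries. Replicate 3 was highest in both fractions. Its interval was the widest of the 3, -1.19 to 0.77 around -0.21. The edgeR adjusted p-values of Tet1, Tet2 and Tet3 were 0.90, 0.99 and 0.96, and changes within these intervals could not be told from none in this fit.

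Of the PRC2 catalytic subunits, Ezh2 was lower in Mdr1+ libraries and Ezh1 was not. Ezh2 was at 119, 94.2 and 128 CPM in Mdr1- and at 90.4, 47.8 and 51.9 CPM in Mdr1+ libraries. The groups did not overlap, but the Mdr1+ library of replicate 1 lay just under the lowest Mdr1- library. The log2 fold change of -0.84 ± 0.26 missed the threshold without the block (edgeR adjusted p = 0.21) and passed with it (-0.86 ± 0.16, adjusted p = 0.010). That call with the block was lost without replicate 3 (-0.72, adjusted p = 0.052). Without the Mdr1+ library of replicate 1, Ezh2 passed in the fit without a block (-1.23, adjusted p = 0.026). Ezh1 was at 95.3, 112 and 103 CPM in Mdr1- and at 104, 145 and 133 CPM in Mdr1+ libraries. It was higher in Mdr1+ within each number, by 0.13, 0.37 and 0.36 log2 units, with overlap between the groups at replicate 1. Its log2 fold change of 0.30 ± 0.18 did not pass without the block or with it (adjusted p = 0.59 and 0.10).

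**Figure D2:**
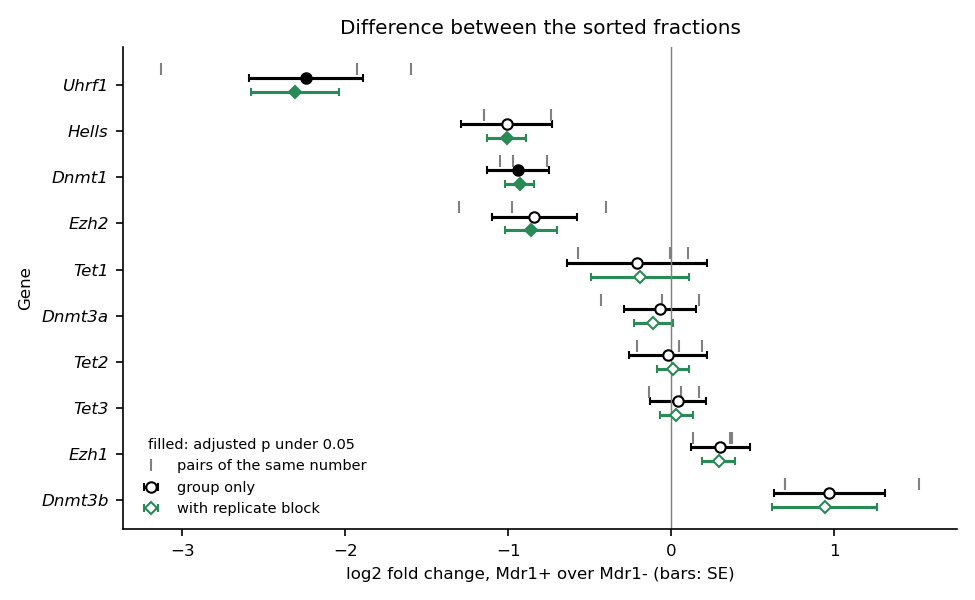
Log2 fold change of Mdr1+ over Mdr1- (x axis) for each of the 10 genes (y axis). Circles are the fit by group only, diamonds the fit with the replicate block, bars the standard errors, filled symbols an adjusted p under 0.05 and grey ticks the 3 pairs of the same replicate number. Uhrf1 lies lowest at -2.24, Hells, Dnmt1 and Ezh2 lie between -1.01 and -0.84, and Dnmt3b lies highest at 0.97.

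RefSeq promoter windows were searched for motifs because Dnmt1, Uhrf1, Hells and Ezh2 were low together in Mdr1+ libraries. The windows run from 250 bases before to 50 bases after each start site (build GRCm38.p6), and all 10 genes matched, with 15 windows. Letters of the E2F motif were TTTCCCGC, TTTCGCGC, TTTGCCGC or TTTGGCGC on either strand. E2F factors are known regulators of replication genes. A match was found in 4 of the 10 genes, Dnmt1, Uhrf1, Hells and Ezh2, and in 5.1% of the 8081 tested genes that have a window. The motif was chosen with the genes' results known, so this is a description with no test, and a match shows letters and not binding. The matches are shown 5′ to 3′ on the gene's strand, with the motif in capitals, so that their letters and flanks can be compared.
Uhrf1, the later start site: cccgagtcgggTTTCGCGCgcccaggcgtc
Hells: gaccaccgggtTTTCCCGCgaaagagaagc
Ezh2: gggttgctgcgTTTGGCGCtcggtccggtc
Dnmt1, the third start site, upstream: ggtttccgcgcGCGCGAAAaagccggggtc
Dnmt1, the third start site, downstream: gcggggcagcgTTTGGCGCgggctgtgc
In GRCm38.p6 these stretches lie at chr17:56304117-56304146 on the plus strand for Uhrf1, chr19:38930917-38930946 on the plus strand for Hells, and chr6:47595009-47595038 on the minus strand for Ezh2. The Dnmt1 stretches lie at chr9:20952824-20952853 and chr9:20952574-20952601 on the minus strand. The motif starts 185 bases before the start site in Uhrf1, 62 before it in Hells and at base 4 after it in Ezh2. In Dnmt1 the upstream match, on the opposite strand, starts 219 bases before the start site and the downstream match at base 34. By GENCODE M21, the stretches of Hells, Ezh2 and Dnmt1 lie in annotated exons of those genes and the Uhrf1 stretch does not.

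Uhrf1 and Ezh1, with the lowest and the second highest log2 fold change of the 10, are shown for longer context. These are the 250 bases before a start site, with matches to the E2F motif and to CCAAT or its reverse ATTGG in capitals.
Uhrf1, the later start site, chr17:56304063-56304312, plus strand: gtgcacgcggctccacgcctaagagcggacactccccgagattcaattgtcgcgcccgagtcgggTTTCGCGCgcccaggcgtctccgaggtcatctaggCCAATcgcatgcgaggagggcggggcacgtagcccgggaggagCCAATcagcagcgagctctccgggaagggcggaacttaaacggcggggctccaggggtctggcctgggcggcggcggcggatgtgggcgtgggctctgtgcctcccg
Ezh1, chr11:101226464-101226713, minus strand: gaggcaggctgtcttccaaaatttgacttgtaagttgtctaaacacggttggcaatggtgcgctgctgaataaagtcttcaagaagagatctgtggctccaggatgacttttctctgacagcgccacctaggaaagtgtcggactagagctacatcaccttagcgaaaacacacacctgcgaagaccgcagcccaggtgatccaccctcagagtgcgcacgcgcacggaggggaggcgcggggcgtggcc
The Uhrf1 stretch holds 1 E2F match and 2 CCAAT boxes, and the Ezh1 stretch holds neither. Over the full windows CCAAT or ATTGG was found in 4 of the 10 genes (Dnmt1, Uhrf1, Tet3 and Ezh2) and in 43.4% of tested genes with a window. TTTGAA or TTCAAA, the core of the cell cycle homology element, was found in 2 (Dnmt1 and Dnmt3b) and in 14%. In Dnmt1 it lay in the window of the first start site and not in that of the third, which holds the E2F matches. CpG dinucleotides, the sites of DNA methylation, numbered 2, 12 and 33 in the 3 windows of Dnmt1, against a median of 7 over all 32851 windows. They numbered 46, 47 and 18 in those of Dnmt3a, 12 and 33 in those of Uhrf1, and 17 to 57 in the single windows of the other 7 genes. The first window of Dnmt1 was thus the one below that median. Which start site these T cells use was not measured.

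Ratios of read counts within a library do not depend on library scaling. The ratio of Dnmt1 to Dnmt3a reads was 4.25, 4.97 and 4.56 in the Mdr1- libraries and 3.37, 2.63 and 1.96 in the Mdr1+ libraries. The fractions did not overlap, and the Mdr1- libraries were closer together. The difference on the log2 scale was -0.82 (two-sided exact permutation test, p = 0.1, the smallest that 3 against 3 libraries allows). The ratio of Ezh2 to Ezh1 reads was 1.25, 0.839 and 1.24 in Mdr1- and 0.869, 0.329 and 0.391 in Mdr1+ libraries. The Mdr1+ library of replicate 1 lay inside the Mdr1- range, so the groups overlapped (log2 difference -1.18, exact permutation p = 0.2). The ratio of Uhrf1 to its paralog Uhrf2 was 0.255, 1.03 and 0.564 in Mdr1- and 0.0594, 0.107 and 0.169 in Mdr1+ libraries (log2 difference -2.37, exact permutation p = 0.1). Uhrf2 itself varied by replicate number, from 127 to 289 CPM in Mdr1- and from 140 to 324 CPM in Mdr1+ libraries. Adjusted over these 3 ratios, the exact permutation p-values were 0.15, 0.2 and 0.15.

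**Figure D3:**
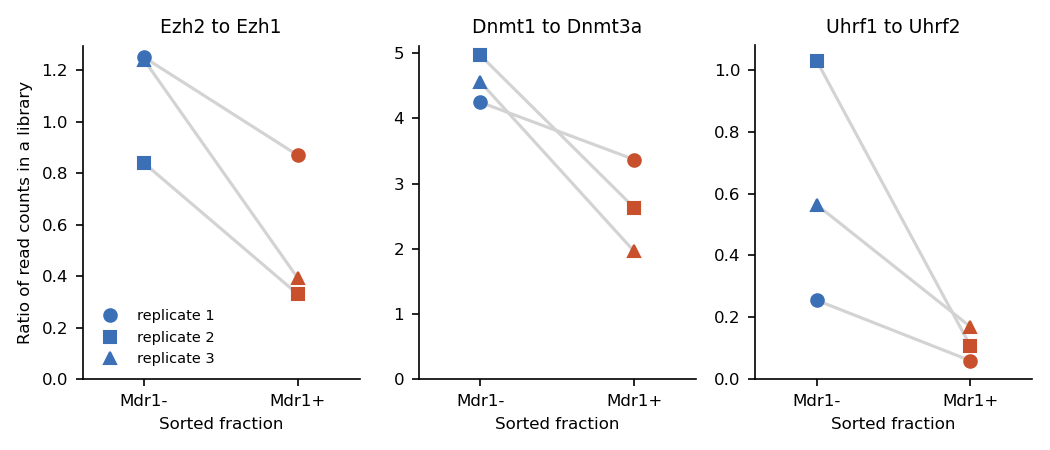
Ratio of read counts of 2 genes in the same library (y axis, linear from 0, 1 scale per panel) in the Mdr1- and Mdr1+ fractions (x axis). Symbols are replicate numbers, and grey lines join libraries of the same number. All 3 ratios are lower in the Mdr1+ library of every pair, and the Ezh2 to Ezh1 ratio overlaps between fractions.

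Divided by exon length, levels can be set side by side between genes. RPKM here is TMM-scaled CPM per kilobase of the union of a gene's exons in GENCODE M21, which counts exons of rarely used transcripts too. In Mdr1- cells the mean level in RPKM was 80.2 for Dnmt1, 24.7 for Uhrf1, 18.3 for Hells, 17.1 for Ezh2, 14 for Ezh1, 12.6 for Tet2, 9.40 for Tet3, 7.69 for Dnmt3a, 1.10 for Dnmt3b and 0.617 for Tet1. Neighbours in this order overlapped between libraries from Uhrf1 to Tet3. Dnmt1 against Uhrf1, Tet3 against Dnmt3a, and the last pairs of neighbours did not overlap. In Mdr1+ cells Dnmt1 was still highest, at 41.9 RPKM, followed by Ezh1 at 17.1, Tet2 at 12.4, Tet3 at 9.70, Ezh2 at 9.49, Hells at 9.16, Dnmt3a at 7.33, Uhrf1 at 5.49, Dnmt3b at 2.19 and Tet1 at 0.560. There, neighbours from Ezh1 to Uhrf1 overlapped between libraries. Ezh1 exceeded Ezh2 in RPKM in 3 of 3 Mdr1+ libraries and in 1 of 3 Mdr1- libraries, that of replicate 2.

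Lig1, a replication gene, was the one maintenance partner that fell in the fit by group. Of 11 tested partners and histone H3 lysine 9 enzymes 1 fell, this ligase of lagging strand synthesis, from 117 ± 27 to 33.2 ± 2.7 CPM on average (SD, n = 3 per fraction; log2 fold change -1.80 ± 0.21, edgeR adjusted p = 0.0044). With the block Cdca7 and Suv39h1 fell too. Of all tested genes 1.95% fell without the block and 6.57% with it. Cdca7, the activator of Hells, stood at -1.66 ± 0.36 (edgeR adjusted p = 0.050, and 0.0063 once the block was added). Suv39h1, a histone H3 lysine 9 methyltransferase, had one of -0.75 (0.19 and 0.023). Usp7, a deubiquitinase that stabilises Uhrf1 and Dnmt1, and Trim28, a corepressor, each had one of 0.08 that did not pass. The list's median was -0.18. Without replicate 3, Lig1 lost its call in the fit without a block (adjusted p = 0.17).

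Of 12 enzymes of methyl donor and cofactor supply 0 rose and 1 fell in edgeR without the block (1 higher and 3 lower at an unadjusted p under 0.05, 0 higher and 2 lower in DESeq2). With the block 2 rose and 3 fell. Of all 10897 tested genes 0.275% rose and 1.95% fell without the block, and 5.81% and 6.57% with it. At the unadjusted threshold 505 of them were higher and 787 lower, and DESeq2 called 103 of them higher and 375 lower. Mat2a (0.63), which makes S-adenosylmethionine, the methyl donor of all these methyltransferases, was among those that rose. Shmt1 (-1.14), a serine hydroxymethyltransferase, and the mitochondrial isocitrate dehydrogenase gene Idh2 (-0.84) were among those that fell. Mat2b and Mtr, at 0.27 and 0.16, did not pass. The list's median was 0.19.

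Of 9 tested PRC2 core and accessory genes 0 passed in edgeR without the block, with 1 higher and 3 lower at an unadjusted p under 0.05 and 1 higher and 1 lower in DESeq2. With the block 1 rose and 3 fell, against 5.81% and 6.57% of all tested genes. Of all 10897 tested genes 505 were higher and 787 lower at the unadjusted threshold, and DESeq2 called 103 higher and 375 lower. Phf1, an accessory Polycomb-like protein, was at 59.7, 72.5 and 56.5 CPM in Mdr1- and at 99.2, 156 and 116 CPM in Mdr1+ libraries. All 3 Mdr1+ libraries were higher (0.98 ± 0.21 on the log2 scale, edgeR adjusted p = 0.051, and 0.0013 once the block was added). Phf19, another Polycomb-like protein, fell with the block, from 24.4 to 11.3 CPM on average (-1.25 with the block, adjusted p = 0.029). The histone-binding subunits Rbbp4 and Rbbp7, which also serve in chromatin assembly complexes, fell with the block by 0.37 and 0.55 on the log2 scale. The core subunit Suz12 and the accessory subunit Aebp2, at -0.38 and 0.09, did not pass. Eed, the core subunit that binds methylated lysine 27, chosen after its values were seen, was at 105 ± 23.5 and 102 ± 20.5 CPM (SD, n = 3 each). The list's median was -0.04.

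Of 20 PRC1 genes, whose complex ubiquitinates histone H2A, 0 passed in edgeR without the block (3 higher and 0 lower at an unadjusted p under 0.05, 0 in DESeq2). With the block 3 rose, among them the chromodomain gene Cbx7 (0.75) and the polyhomeotic gene Phc3 (0.50), against 5.81% of all tested genes, and 0 fell, against 6.57%. At the unadjusted threshold 505 of all 10897 tested genes were higher and 787 lower, and DESeq2 called 103 higher and 375 lower. Kdm2b and Phc2, at 0.08 and 0.26, did not pass. The list's median was 0.19, with 16 of 20 log2 fold changes above 0, against 5906 of the 10897 tested genes. Of 5 lysine 27 demethylase and H2A deubiquitinase genes 0 passed in edgeR with or without the block (0 at an unadjusted p under 0.05 without it, 0 in DESeq2). The demethylase genes Kdm6a and Kdm6b had values of 0.14 and 0.44.

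Of 9 readers of methylated CpG 0 passed in edgeR without the block, with 1 higher and 1 lower at an unadjusted p under 0.05, and 1 higher in DESeq2. With the block Zbtb4, a zinc finger reader, rose (0.73) and Mbd4, a glycosylase that repairs deaminated CpG, fell (-0.67). Of all tested genes 5.81% rose and 6.57% fell in that fit. Mbd2 and Uhrf2, at 0.09 and 0.15, did not pass. Of 8 tested genes of demethylation repair and regulation 0 passed in edgeR without the block (0 higher and 1 lower at an unadjusted p under 0.05, 0 in DESeq2), and with it Parp1, a DNA break sensor, fell (-0.54). Ogt, the Tet-binding glycosyltransferase, at 0.11, and Gadd45b, at -0.33, did not pass. The other 4 of that list of 12, Tdg, Cxxc4, Cxxc5 and Dnmt3l, named after their values were seen, were too low to test, at 0.244 CPM or less on average in either group. Tdg encodes the glycosylase that removes Tet products. Reads without a unique position stood outside the gene counts of replicates 1 and 2, and whether that lowered the counts of Tdg was not tested. Over all 74 tested pathway genes outside the 10, 0 rose and 2 fell in edgeR without the block, against 0.275% and 1.95% of all tested genes. At an unadjusted edgeR p under 0.05, 6 were higher and 11 lower, against 505 and 787 of the 10897 tested genes. DESeq2 called 2 higher and 5 lower, against 103 and 375. With the block 7 rose and 11 fell, against 5.81% and 6.57%. Their median was 0.08.

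**Figure D4:**
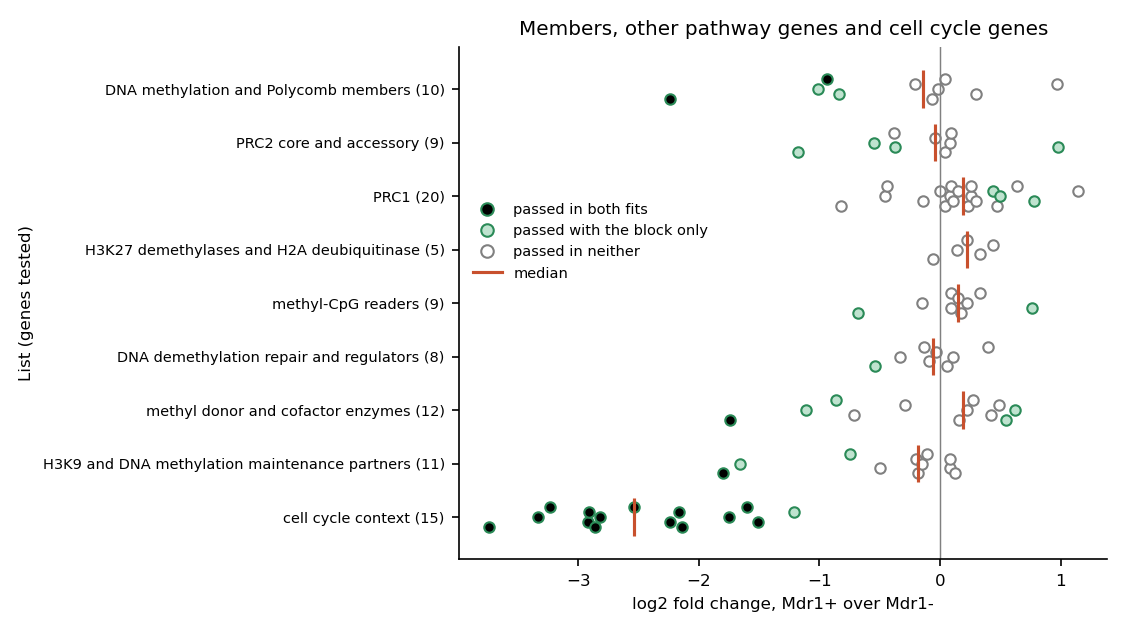
The x axis gives the log2 fold change, Mdr1+ over Mdr1-, for every tested gene of the lists on the y axis (number tested in parentheses). Black points passed in both fits, green points with the replicate block only and open points in neither, and red bars are list medians. The medians of the 10 enzymes and of the other pathway lists lie between -0.18 and 0.22, and that of the cell cycle genes lies at -2.54.

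Cell cycle transcripts moved with Dnmt1, Uhrf1, Hells and Ezh2. Of 15 cell cycle genes 14 fell without the block and 15 with it, against 1.95% and 6.57% of all tested genes. Their median was -2.54. Without replicate 3 edgeR called 0 genes of all tested, these included, in the fit by group (237 higher and 667 lower at an unadjusted p under 0.05). The summed level of the 15 genes was 721 to 832 CPM in Mdr1+ and 2720 to 4030 CPM in Mdr1- libraries. Mki67, which marks proliferating cells, stood at 851, 1350 and 1490 CPM in Mdr1- and at 218, 178 and 241 CPM in Mdr1+ libraries. Mcm5, a subunit of the replicative helicase, fell, with a value of -1.75 ± 0.20 (edgeR adjusted p = 0.0043). The falls of Dnmt1 (-0.94), Hells (-1.01) and Ezh2 (-0.84) were smaller than those of Mki67 (-2.54) and Mcm5, and that of Uhrf1 (-2.24) lay between these 2; the differences between genes were not tested. In bulk samples fewer cycling cells and less RNA per cell cannot be told apart, and the part of cycling cells in these values was not tested. The summed dendritic cell markers, mostly Cd74, were also lower in every Mdr1+ library, as were Acta2 and Cdh5. Myeloid genes were highest in the Mdr1- library of replicate 3. The part of any such other cells in these values was not tested. Without that library the log2 fold changes were -2.20 for Uhrf1, -0.92 for Dnmt1, -0.81 for Hells and -0.75 for Ezh2.

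Genes with the most similar pattern over the 6 libraries were taken by root mean square distance between log2 CPM profiles, each centred on its own mean, among the 7354 genes whose average log2 CPM reached 4. For Uhrf1 these were Cdk1, Clspn, Cenpe, Melk and Nusap1, at distances of 0.10 to 0.20 log2 units, where the median gene lay at 1.25. These include the mitotic kinase gene Cdk1 and the replication checkpoint adaptor gene Clspn. For Ezh2 they were Dstn, Serpinb6b, Hat1, Myb and Orc1, at 0.13 to 0.17, with a median of 0.62. Hat1 encodes a histone acetyltransferase and Orc1 a subunit of the origin recognition complex. For Ezh1 they were Pdcd11, Gigyf1, Mink1, Pcif1 and Tmem259, at 0.03 to 0.04, and for Dnmt3a Tnfrsf25, 6330416G13Rik, Ubac1, Tgds and Abca3, at 0.06 to 0.08. Ezh1 and Dnmt3a changed little across libraries, so many genes lie near them, with medians of 0.33 and 0.39. Among the 10 enzymes the nearest pairs were Dnmt3a with Tet3 (0.15), Tet3 with Ezh1 (0.17), Dnmt3a with Ezh1 (0.24) and Hells with Ezh2 (0.27). Uhrf1 stood farthest from the rest, at 0.77 or more from each of the other 9.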

How the data were processed

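RNA of 6 libraries, 3 per sorted fraction, was measured from 500 ng of total RNA with a stranded kit, per the labels' protocols. The authors deposited raw counts of reads, 1 row for each gene symbol. Per the submitters' processing notes, TopHat, HTSeq, DESeq2 and build mm9 were involved; for their versions, the annotation and strandedness the sources used here give nothing. Whether reads of antisense genes were kept apart is therefore unknown. In GENCODE M21 annotated antisense transcripts overlap 0.8% of the exon bases of Dnmt3a, 2.6% of those of Ezh2 and 0.3% of those of Tet2. HTSeq's classes of unassigned reads, given for replicates 1 and 2, stayed out of all tests. Reads without a unique position were 67.0% to 73.2% of entries there, and reads in no feature 13.2% to 19.7%.

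The columns of replicate 3 are deposited in case-insensitive order of the gene names and were assigned to the names so sorted. This raised their Spearman correlations with the other libraries from 0.424 to 0.460 to 0.926 to 0.962. Sorted fraction and replicate number came from the sample titles. Tests used edgeR 4.0.16 (R 4.3.3) with TMM scaling, filterByExpr by group and the quasi-likelihood F test (robust), in a model of fraction alone. The fit was tested on simulated data without the shared deviations of replicate numbers seen here, so that test does not cover them. Its planted changes were larger than those of Dnmt1, Hells and Ezh2. Standard errors are the log2 fold change over the square root of F. Log2 CPM used a prior count of 2, and ratios had 0.5 added to each count. Pairing was judged from the data and shared numbers, since the labels do not state it.

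The members, gene lists, motifs and tests were chosen with earlier results of these data known. The rule for named genes took all 10 members, pathway genes past the threshold in either fit, up to 3 others per list by mean CPM, and the 5 nearest profiles of Uhrf1, Ezh2, Ezh1 and Dnmt3a. Alternatives were the replicate block, other scalings, DESeq2 1.42.0, other filters, a non-robust fit and leaving out libraries. Some genes of the lists are counted but not reported by name here. Sequences are from RefSeq (GRCm38.p6), another build than the counts.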

Additional observations from a re-analysis of the deposited data

How the results depend on the processing

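Counts of calls depended most on the replicate block and on which libraries were used. Over all genes, 30 were higher and 212 lower. With the replicate block 633 were higher and 716 lower, DESeq2's Wald test gave 103 and 382, and without a filter on low counts 52 were higher and 287 lower. Leaving out a library or a replicate number gave 0 to 15 higher and 0 to 196 lower. The 0 values came without replicate 3, where edgeR gave 237 higher and 667 lower at an unadjusted p under 0.05 and fewer libraries entered. With the replicate block and without a replicate number, an alternative chosen after seeing the data, 436, 259 and 1131 were higher and 694, 392 and 1347 lower without replicates 1, 2 and 3.

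Of the 10 enzymes 2 were lower, 4 with the replicate block, 0 to 2 when a library or number was left out, and 3 to 4 with the block and a number left out. None was higher except Dnmt3b (1) with the block without replicate 3. Dnmt1, Uhrf1, Hells, Ezh2, Dnmt3b and Ezh1 kept their sign in all 19 alternatives, and Dnmt3a, Tet1, Tet2 and Tet3, never past the threshold, changed sign in 1, 3, 6 and 4. The differences in count ratio kept their sign without each number, at -1.51 to -0.94 for Ezh2 to Ezh1, -1.07 to -0.62 for Dnmt1 to Dnmt3a and -2.68 to -1.91 for Uhrf1 to Uhrf2. Paired by replicate number they were the same, and the exact sign-flip permutation test cannot go below p = 0.25. Depth limits Tet1 and Dnmt3b most, with as few as 28 and 30 counts.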
